A study of Homo sapiens with 10 samples.

Results

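The genes described here encode AP-1 and ETS proteins, 2 families from which IRF4 is known to draw partners at composite DNA sites. They are the AP-1 factors BATF, BATF2, BATF3, JUN, JUNB, JUND and FOSL1 and the ETS factors SPI1, SPIB and ETS1. They were chosen by name, listed as partners of IRF4, by a rule that uses no measured value but was written with earlier results of these data known. The composite sites described below are those of PU.1, Spi-B and BATF with JUN proteins. None is described for FOSL1 or ETS1. Of these 10 genes, 8 were followed, each through the 1 Ensembl transcript named as its main transcript when the genes were chosen. For BATF2 and SPIB no transcript was named, and they were not analysed here. The 8 transcripts are among 187626 listed in each table. A value below is therefore the level of 1 transcript, which sets no upper limit on its gene, since other transcripts of the same gene were not summed.

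The cells were 501Mel, an established human skin melanoma line, which all groups share. Polyadenylated RNA was sequenced from 3 libraries of cells given a small interfering RNA named siIRF4 and 3 given siCTRL. The labels state no dose, no time after transfection and no shared culture, so that the tests below measure the spread between these libraries, which may be technical. IRF4 tagged with eGFP was also mapped by ChIP-seq in these cells, but those peak lists were not used here.

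IRF4 binds DNA weakly on its own and is recruited by partners. With the ETS factor PU.1, the product of SPI1, or with Spi-B, it binds ETS-IRF composite elements (EICE), and with a dimer of a BATF and a JUN protein it binds AP-1-IRF composite elements (AICE). These partnerships are known above all from B cells, T cells and dendritic cells. BATF proteins have a basic leucine zipper but no transactivation domain, and they need a JUN protein to bind DNA. In melanocytes, IRF4 is best known for acting with MITF at a tyrosinase enhancer.

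Total estimated counts ran from 129989698 to 203758441 per library. No IRF4 transcript was followed, so neither the knockdown nor the labels could be checked on the targeted gene. The melanocyte and leukocyte marker lists were not analysed here either. The libraries did not part by label on the first principal component of log2 CPM (counts scaled to library size), which carried 33.6% of the variance over the 83831 transcripts tested. On that component siIRF4 replicate 2 lay at 199, siCTRL replicate 2 at 132 and siIRF4 replicate 3 at 80.8. The other libraries, siIRF4 replicate 1, siCTRL replicate 1 and siCTRL replicate 3, lay at -111, -128 and -173. Of the members' results, those that rest on siIRF4 replicate 1 and siCTRL replicate 2 are given with and without these libraries.

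Among the AP-1 transcripts followed, those of JUN, JUNB, JUND and FOSL1 were abundant in these cells and those of BATF and BATF3 were low beside them. FOSL1 was the only FOS family gene followed. Levels are given as TPM, the authors' abundances scaled per transcript length and to one total for all libraries. Of the 8 transcripts, 5 reached 1 TPM in all 6 libraries: JUND, JUNB, ETS1, FOSL1 and JUN. BATF reached it in 4 libraries, BATF3 in 5 and SPI1 in 0. Depending on the library, BATF stood at or above 75.9% to 89.5% of all listed transcripts by TPM, and BATF3 at or above 77.9% to 85.3%. For JUN the share was 91.9% to 97.5%, and for JUND 97.6% to 99.2%. By mean over the 6 libraries the order was JUND (58.6 ± 24.0 TPM, SD, n = 6), JUNB (32.6 ± 5.62), ETS1 (32.5 ± 8.63), FOSL1 (23.2 ± 7.51), JUN (17.6 ± 10.7), BATF (2.42 ± 1.52), BATF3 (1.65 ± 0.478) and SPI1 (0.00716). The ranges of neighbours in this order overlapped, except between JUN and BATF and between BATF3 and SPI1. JUNB was above ETS1 in 3 of 6 libraries and BATF above BATF3 in 3 of 6, so neither pair was ordered beyond its spread.

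**Figure D1:**
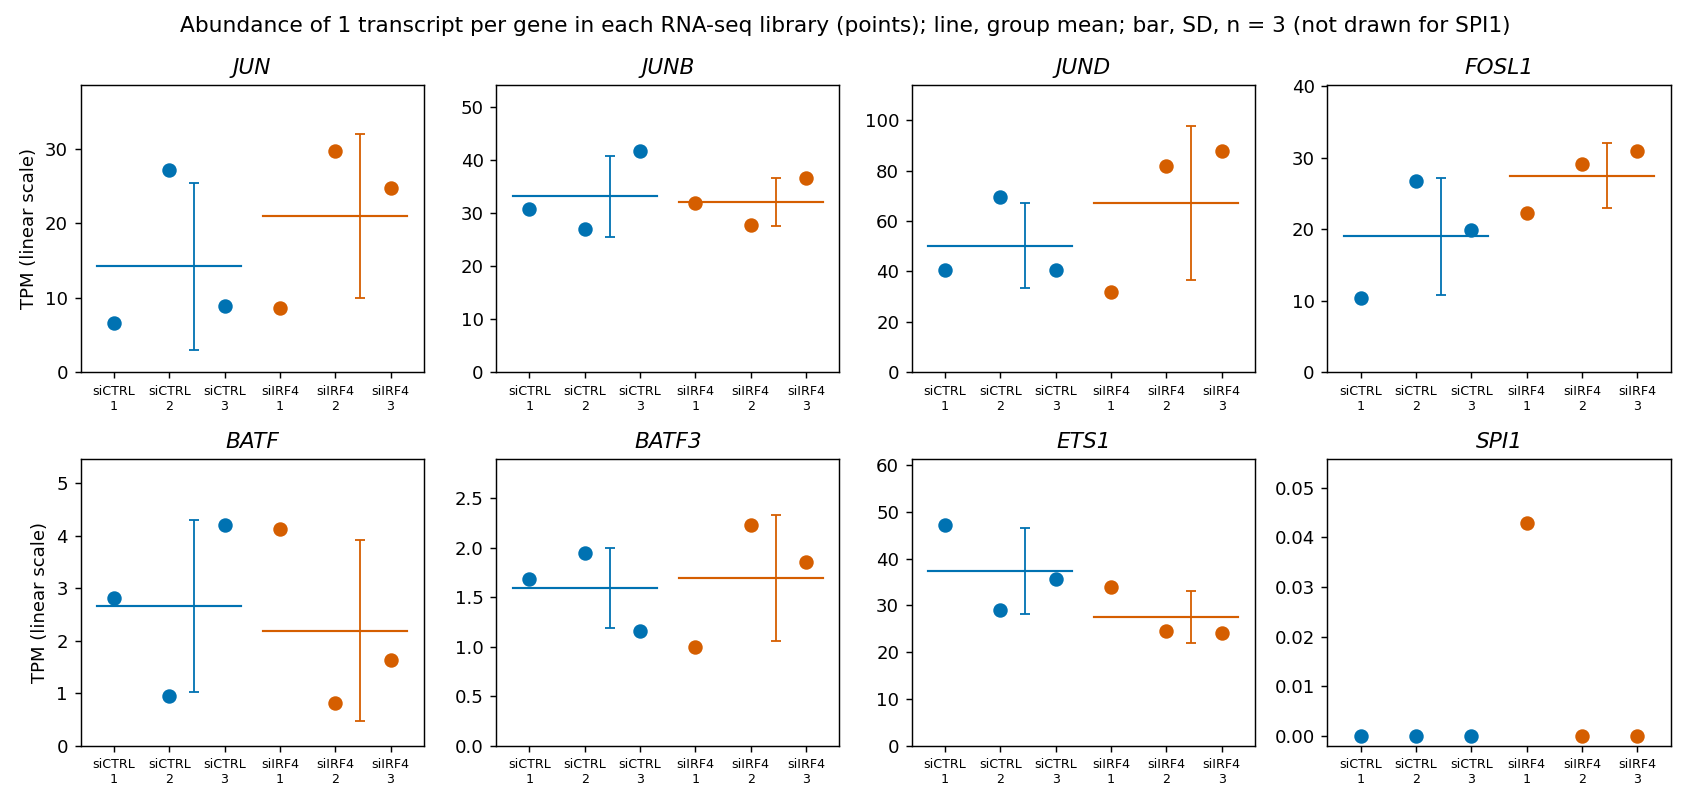
TPM of 1 transcript per gene (y axis, linear, a separate scale in each panel) in the 3 siCTRL (blue) and 3 siIRF4 (orange) libraries (x axis). Points are libraries, lines are group means and bars are SD (n = 3); neither is drawn for SPI1. In JUN, JUND and FOSL1 the highest points are siIRF4 replicates 2 and 3 and siCTRL replicate 2.

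JUN, which encodes c-Jun, the founding AP-1 subunit, was followed through ENST00000371222.3 (3540 bases). The gene lies on chromosome 1 from 58780791 to 58784047 (GRCh38.p14, RefSeq). It had 8.60, 29.7 and 24.8 TPM in siIRF4 replicates 1, 2 and 3, and 6.60, 27.2 and 8.81 TPM in siCTRL replicates 1, 2 and 3. The values fell into a high set and a low set, each with libraries of both labels, so the groups overlapped. The third highest library had 2.81 times the TPM of the fourth. The estimated count of JUN was a whole number in 6 of 6 libraries (within 0.001), as it is when no fragment is split with another listed transcript, and was never under 2313.

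JUND, the JUN family member known for broad and steady expression, was followed through ENST00000252818.4 (1863 bases). The gene lies on chromosome 19 from 18279694 to 18281622. It had 32.0, 81.9 and 87.7 TPM in siIRF4 replicates 1, 2 and 3, and 40.4, 69.5 and 40.5 TPM in siCTRL replicates 1, 2 and 3. The same 3 libraries as for JUN were high, and the groups again overlapped, the third highest value being 1.72 times the fourth.

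JUNB, a JUN protein with weaker transactivation than c-Jun that is also a BATF partner in lymphocytes, was followed through ENST00000302754.5 (1820 bases). The gene lies on chromosome 19 from 12791486 to 12793315. It had 31.9, 27.7 and 36.7 TPM in siIRF4 replicates 1, 2 and 3, and 30.7, 27.0 and 41.7 TPM in siCTRL replicates 1, 2 and 3. JUNB had the smallest relative range of the 7 transcripts detected in every library, its highest library having 1.54 times the TPM of its lowest, against 4.50 times for JUN and 2.74 times for JUND. Of the libraries that were high for JUN, siIRF4 replicate 3 was the second highest for JUNB, while siIRF4 replicate 2 and siCTRL replicate 2 were its lowest.

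The start-site windows of the 3 JUN family genes are shown because JUN and JUND shared an order of libraries that JUNB did not. That choice was made after seeing the values. Whether any motif in the windows bears on that order was not tested. Each runs from 250 bases before to 50 bases after the start site, 5′ to 3′ on the gene's strand, from RefSeq (GRCh38.p14). JUN lies at chr1:58783998-58784297 (minus strand), JUND at chr19:18281573-18281872 (minus strand) and JUNB at chr19:12791236-12791535 (plus strand). Capitals mark matches to the motifs described next.
JUN: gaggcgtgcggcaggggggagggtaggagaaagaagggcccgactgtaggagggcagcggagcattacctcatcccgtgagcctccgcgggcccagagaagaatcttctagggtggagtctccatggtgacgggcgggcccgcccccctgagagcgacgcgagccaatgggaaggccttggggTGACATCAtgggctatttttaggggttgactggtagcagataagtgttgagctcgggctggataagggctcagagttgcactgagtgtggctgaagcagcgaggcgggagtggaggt
JUND: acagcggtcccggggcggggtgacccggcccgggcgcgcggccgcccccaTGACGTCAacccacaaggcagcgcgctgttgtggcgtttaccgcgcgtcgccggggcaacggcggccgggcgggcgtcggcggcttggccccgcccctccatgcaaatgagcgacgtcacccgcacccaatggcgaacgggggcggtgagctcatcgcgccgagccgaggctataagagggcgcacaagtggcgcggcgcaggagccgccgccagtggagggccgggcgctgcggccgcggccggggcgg
JUNB: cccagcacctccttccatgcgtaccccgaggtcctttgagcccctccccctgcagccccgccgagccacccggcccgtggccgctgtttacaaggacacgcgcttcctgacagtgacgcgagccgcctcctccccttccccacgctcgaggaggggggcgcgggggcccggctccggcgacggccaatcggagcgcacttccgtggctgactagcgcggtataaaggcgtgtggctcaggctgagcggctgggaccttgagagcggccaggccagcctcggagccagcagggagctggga

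The motifs searched on both strands were the AP-1 sites TGANTCA (TRE), TGACGTCA (CRE) and TGACATCA (the variant described for the JUN promoter), the ETS site CCGGAAG, the EICE as GGAA and GAAA 2 bases apart, the core of the interferon response element as GAAA and GAAA 2 bases apart, and the AICE as GAAA joined to TGANTCA or TTTC 4 bases before TGANTCA. N is any base. The AICE forms contain the TRE. JUN held TGACATCA, beginning 67 bases before the start site, a motif found in 2.61% of the 35116 windows of this length. JUND held TGACGTCA, beginning 200 bases before it, which 1.85% of windows hold. JUNB held none of the 8. Windows of BATF, BATF2 and SPIB were also in the table. BATF2 held TGACATCA, 132 bases before the start site of its window. BATF, whose lowest values were in the libraries high for JUN, held none, and neither did SPIB.

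None of these 6 windows held the EICE, the AICE or the interferon core, which stood in 2.82%, in 0.162% and 0.114% for the AICE forms, and in 3.57% of all windows. This says only that these letters are not in these windows. GC content was 62.0% in JUN, 71.0% in JUNB and 77.0% in JUND, against 46.0% in BATF and a median of 58.7% over all windows. BATF3, FOSL1, SPI1 and ETS1 were not in the table.

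JUN, JUNB and JUND encode the JUN proteins with which a BATF protein can pair. Their summed TPM was 72.4, 139 and 149 in siIRF4 replicates 1, 2 and 3, and 77.7, 124 and 90.9 in siCTRL replicates 1, 2 and 3. This is a sum of RNA, and protein levels were not analysed here. JUND made up between 44.1% and 58.8% of this sum. JUN made up 11.9%, 21.3% and 16.6% in siIRF4 replicates 1, 2 and 3, and 8.49%, 22.0% and 9.69% in siCTRL replicates 1, 2 and 3. The JUNB share was lowest in siIRF4 replicate 2 (19.9%) and highest in siCTRL replicate 3 (45.8%).

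The mean sum was 120 ± 41.7 TPM in siIRF4 and 97.4 ± 23.7 TPM in siCTRL (SD, n = 3 each; exact permutation test, two-sided, p = 0.5). The JUN share was 16.6% ± 4.72 in siIRF4 and 13.4% ± 7.45 in siCTRL (exact permutation test, p = 0.6). These were 2 of 8 derived quantities compared, all with an exact permutation p adjusted by Benjamini-Hochberg of 0.8. With 3 libraries against 3 the smallest p this test allows is 0.1.

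**Figure D2:**
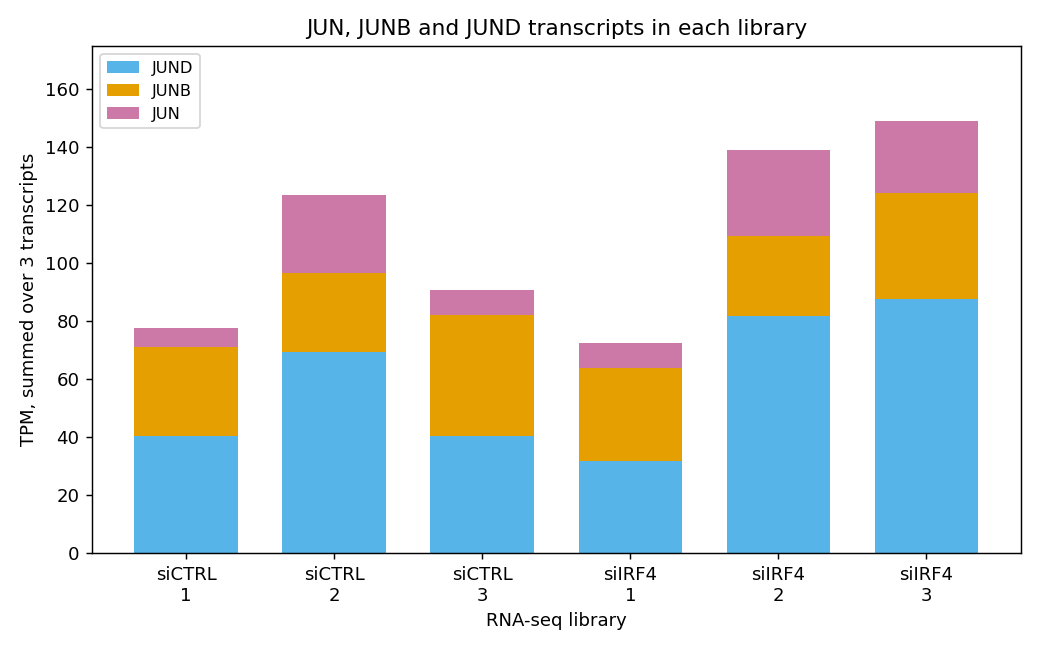
TPM of the JUND, JUNB and JUN transcripts stacked (y axis, linear from 0) in each of the 6 libraries (x axis). The sum runs from 72.4 TPM in siIRF4 replicate 1 to 149 TPM in siIRF4 replicate 3, and the JUNB segment changes least.

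FOSL1 encodes FRA-1, a FOS family protein that dimerizes with JUN proteins and is known to accumulate with ERK signalling. It was followed through ENST00000312562.6 (1669 bases), and the gene lies on chromosome 11 from 65892049 to 65900545. It had 22.3, 29.1 and 30.9 TPM in siIRF4 replicates 1, 2 and 3, and 10.4, 26.7 and 19.9 TPM in siCTRL replicates 1, 2 and 3. Of the siCTRL libraries only replicate 2 lay within the range of the siIRF4 libraries. siCTRL replicate 1 was the lowest of the 6. The estimated count was a whole number in 0 of 6 libraries, so part of its fragments was shared with other listed transcripts.

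BATF, the factor that pairs with JUN proteins on AICE in T cells, was followed through ENST00000286639.6 (980 bases). The gene lies on chromosome 14 from 75522469 to 75546992. It had 4.12, 0.823 and 1.63 TPM in siIRF4 replicates 1, 2 and 3, and 2.82, 0.938 and 4.20 TPM in siCTRL replicates 1, 2 and 3. The 3 libraries that were high for JUN were the 3 lowest for BATF. Its estimated counts ran from 56.8 in siIRF4 replicate 2 to 290 in siIRF4 replicate 1. Its highest library had 5.11 times the TPM of its lowest.

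BATF3, known for its role in the development of cross-presenting dendritic cells, was followed through ENST00000243440.1 (980 bases). The gene lies on chromosome 1 from 212686417 to 212699840. It had 0.995, 2.23 and 1.86 TPM in siIRF4 replicates 1, 2 and 3, and 1.68, 1.95 and 1.16 TPM in siCTRL replicates 1, 2 and 3. BATF3 was high where BATF was low: it made up 73.1%, 67.5% and 53.3% of the BATF and BATF3 sum in siIRF4 replicate 2, siCTRL replicate 2 and siIRF4 replicate 3. In the remaining libraries it made up 19.4% (siIRF4 replicate 1), 37.4% (siCTRL replicate 1) and 21.6% (siCTRL replicate 3). The sum of both ran from 2.89 to 5.36 TPM. The estimated counts of BATF3 lay between 69.9 and 194 and were whole in 0 of 6 libraries.

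Of the ETS transcripts followed, that of ETS1 was abundant and that of SPI1 was close to absent. ETS1, the founding ETS factor, acts downstream of ERK and is expressed in lymphoid, endothelial and many tumour cells. It was followed through ENST00000319397.6 (2231 bases), and the gene lies on chromosome 11 from 128458765 to 128587558. It had 34.0, 24.6 and 24.2 TPM in siIRF4 replicates 1, 2 and 3, and 47.2, 29.1 and 35.7 TPM in siCTRL replicates 1, 2 and 3. The 2 lowest values were siIRF4 libraries and the 2 highest siCTRL libraries, with an overlap between siIRF4 replicate 1 and siCTRL replicate 2.

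SPI1 encodes PU.1, the ETS partner with which IRF4 binds EICE in B cells and myeloid cells. Its transcript ENST00000378538.7 (1403 bases; gene on chromosome 11 from 47354860 to 47378547) had an estimated count of 4.82 in siIRF4 replicate 1, or 0.0430 TPM. It was listed at 0 in the other 5 libraries. A count of 0 allows up to 3 counts, which is between 0.0187 and 0.0283 TPM in these 5 libraries. That floor covers counting error only. The single count above 0 was not whole, so at least part of it came from fragments shared with other listed transcripts. SPI1 did not pass the filter on low counts and was not tested.

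The comparison of siIRF4 with siCTRL asked whether the members' transcripts differ when IRF4 is targeted. No difference was called for the 7 transcripts tested. With edgeR's quasi-likelihood test on all 6 libraries, 0 had an adjusted p under 0.05 and 0 an unadjusted p under 0.05. Over all 83831 transcripts tested, 0% passed the adjusted threshold and 2.14% (1791) the unadjusted one. DESeq2 called 190 transcripts over the whole table and none of the 7. The values of the groups overlapped for all 7 members, where 7.17% of all transcripts tested did not overlap.

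The fitted differences are given as log2 fold changes of siIRF4 over siCTRL, on edgeR's scale. For JUN it was 0.56 (SE 0.644), with a 95% interval from -0.98 to 2.10. For JUND it was 0.42 (SE 0.398; interval -0.54 to 1.37), for FOSL1 0.53 (SE 0.336; -0.27 to 1.34) and for BATF3 0.10 (SE 0.386; -0.82 to 1.03). For ETS1 it was -0.43 (SE 0.244; -1.01 to 0.15), for BATF -0.24 (SE 0.747; -2.03 to 1.54) and for JUNB -0.05 (SE 0.198; -0.52 to 0.43). The edgeR adjusted p of each rounded to 1. Of the 7, 4 lay above 0 and 3 below, with a median of 0.10 against -0.01 over all transcripts tested.

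These intervals set what the comparison can say. For JUNB they leave room for a level between 0.696 and 1.34 times that of siCTRL, and for ETS1 between 0.496 and 1.11 times. For JUN the corresponding bounds are 0.507 and 4.29 times, and for BATF 0.245 and 2.91 times, so the comparison leaves a wide range of differences open for both. A p that misses the threshold does not show that the groups had equal levels.

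**Figure D3:**
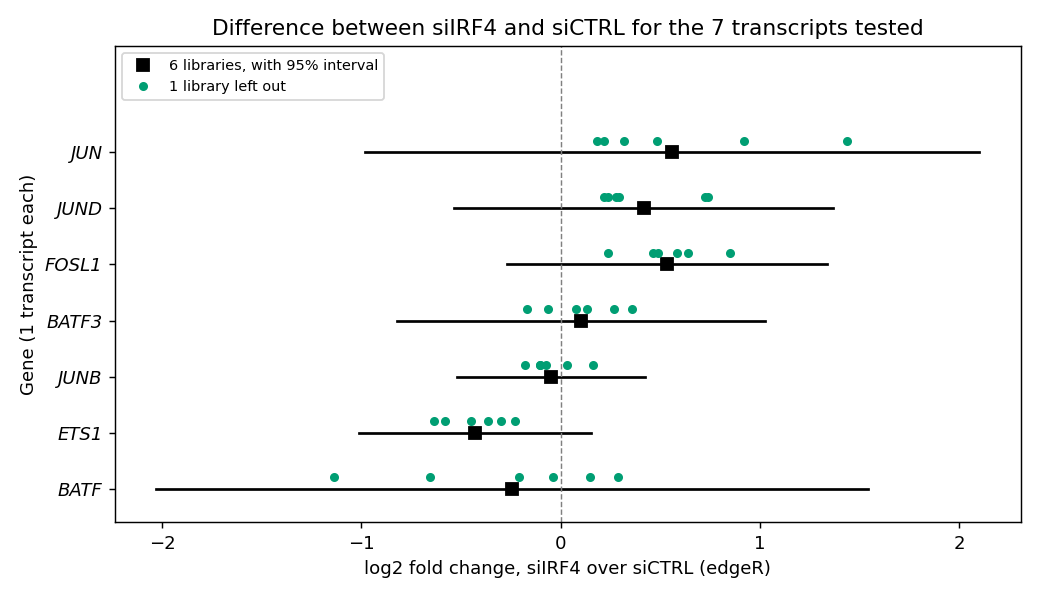
Log2 fold change of siIRF4 over siCTRL (x axis) for the 7 transcripts tested (y axis). Squares are the fit to 6 libraries with its 95% interval, and green points are fits that each left out 1 library. Every interval includes 0, and the points of JUN spread from 0.18 to 1.44.

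Single libraries decided the size of these differences. Leaving out siCTRL replicate 2, the JUN log2 fold change was 1.44, and leaving out siIRF4 replicate 2 it was 0.18. Over the fits that each left out 1 library, BATF ran from -1.14 to 0.29, BATF3 from -0.17 to 0.36 and JUNB from -0.18 to 0.17, so these 3 had no settled direction. JUND ran from 0.22 to 0.74, FOSL1 from 0.24 to 0.85 and ETS1 from -0.63 to -0.23. None of the 7 passed an adjusted p of 0.05 in any of these fits. Without siIRF4 replicate 1, JUND and ETS1 had an unadjusted edgeR p under 0.05, as did 4005 of the 89528 transcripts tested in that fit. Without siCTRL replicate 2, JUN and FOSL1 did, as did 4301 of 88330 transcripts. The edgeR adjusted p was 0.938 for the former pair and 0.936 for the latter.

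With both siIRF4 replicate 1 and siCTRL replicate 2 left out, the log2 fold changes were 1.80 for JUN (edgeR adjusted p = 0.117), 1.05 for JUND (0.113), 0.96 for FOSL1 (0.367), 0.52 for BATF3 (0.663), -0.20 for JUNB (0.796), -0.79 for ETS1 (0.202) and -1.54 for BATF (0.293). Without adjustment, all of these but BATF3 and JUNB had an edgeR p under 0.05, as did 10811 of the 85498 transcripts tested in that fit. In the fit to 6 libraries it was 1791 of 83831. These libraries were left out because they lay with the other label on the first principal component, on which the members also vary. The larger differences follow from that choice and support nothing.

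The members' values followed an order of libraries that was not that of the labels. For 6 of the 7 transcripts tested, siIRF4 replicates 2 and 3 and siCTRL replicate 2 held either the 3 highest values (JUN, JUND, FOSL1 and BATF3) or the 3 lowest (BATF and ETS1). JUNB did neither. The order was noticed in the values and is a description, with no test. Over all 83831 transcripts, 13.8% had their 3 highest values in these libraries and 11.0% their 3 lowest, 24.7% in all. Among the 12704 transcripts with a mean of 10 to 200 CPM, the range that holds JUN, JUND, FOSL1, JUNB and ETS1, it was 20.5% and 16.5%, or 37.0% in all. The order was thus common across the whole table, and no test sets these genes apart from it.

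JUN stood high among transcripts of like abundance in this spread. Its SD of log2 CPM over the 6 libraries was 0.97, larger than that of 98.2% of the 3224 transcripts whose mean CPM was within 0.5 of its own on the log2 scale. The share was 92.7% for JUND (SD 0.59), 90.6% for FOSL1 (SD 0.57), 87.4% for BATF (SD 1.04) and 82.4% for ETS1 (SD 0.38). JUNB (SD 0.23) and BATF3 (SD 0.43) lay near the middle, at 53.4% and 42.0%.

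**Figure D4:**
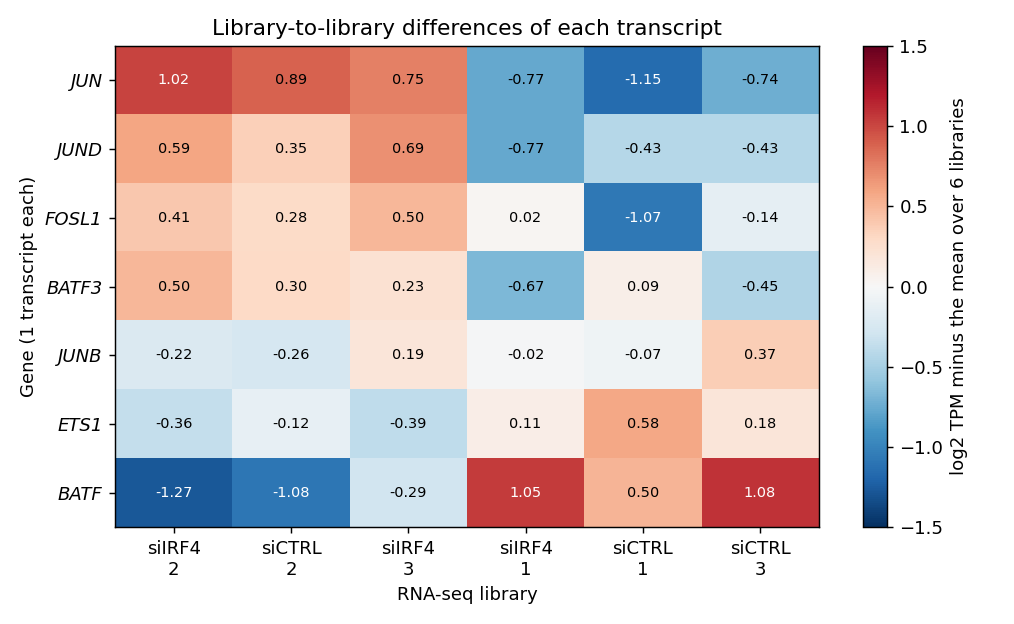
Log2 TPM of each transcript minus its mean over the 6 libraries (colour and printed value), with genes on the y axis and libraries on the x axis in the order of the first principal component. JUN is highest in siIRF4 replicate 2 (1.02) and lowest in siCTRL replicate 1 (-1.15), BATF is low where JUN is high, and JUNB stays between -0.26 and 0.37.

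The library measures at hand overlap between the 2 sets. In the libraries high for JUN, taken as siIRF4 replicate 2, siIRF4 replicate 3 and siCTRL replicate 2, the mean fragment was 285, 263 and 294 bases long. In those low for JUN, taken as siIRF4 replicate 1, siCTRL replicate 1 and siCTRL replicate 3, it was 272, 297 and 272 bases long. Total estimated counts were 135991544, 150847346 and 203758441 in the former and 143091223, 152672204 and 129989698 in the latter, in the same order. The labels give no batch or date. The part of culture or library preparation in the members' order was not tested.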

How the data were processed

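RNA-seq of 6 libraries was analysed from 1 table per library that the authors deposited. The columns are those that kallisto writes: per the file headers, they hold a transcript's length and effective length, its estimated count and its TPM. The submitters' processing notes name kallisto, sleuth and Bowtie2 and the builds GRCh38 and hg19 without roles, and versions are not given in the sources used here. TPM values deposited by the authors were used unchanged for levels. Estimated counts split fragments between overlapping transcripts.

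The plan was to sum counts per gene. The files pair no transcript with a gene, and neither reference table does, so counts were tested per transcript, as the plan provided, and the gene of each member transcript came from the rule that named it. As a check, the intronless genes JUNB and JUND span 1830 and 1929 bases in RefSeq, beside transcripts of 1820 and 1863 bases. For JUN the transcript, at 3540 bases, is longer than the RefSeq span of 3257 bases, so this check did not bear out its pairing. The planned partner-family lists, marker lists, IRF4 level, nearest-pattern genes and peaks around members were not analysed here. The peak lists carry hg19 contig names, whereas the gene coordinates are GRCh38.p14.

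Counts were rounded and fitted with edgeR 4.0.16 (R 4.3.3; filterByExpr, TMM, glmQLFit and glmQLFTest, two-sided, no covariate), with Benjamini-Hochberg adjustment over 83831 transcripts and a threshold of 0.05. SE is the absolute log2 fold change over the square root of F. CPM are not TMM-scaled, and log2 CPM used a prior count of 2. Alternatives used DESeq2 1.42.0 and limma 3.58.1. No 2 libraries were alike within counting noise (chi-square per degree of freedom at least 34.7). The fit was also run on counts simulated for 83831 transcripts at the spread of these libraries. Of the changed transcripts that passed the filter, 49 differed 2-fold, 47 4-fold, 48 8-fold and 50 16-fold between siIRF4 and siCTRL. In the same order, edgeR recovered 4.08%, 12.8%, 39.6% and 54.0% of them. Its 95% interval held the true value for 87.8%, 93.6%, 97.9% and 92.0% of them, and for 95.7% of the 78486 unchanged transcripts. The simulated transcripts varied independently, whereas the real libraries share a component that crosses the labels. These shares therefore may not hold for the real counts. The naming rule took all 10 members, IRF4 and, from each list, the genes with the smallest p; only members with a transcript could be named. The members, lists and tests were chosen with earlier results of these data known.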

Additional observations from a re-analysis of the deposited data

How the results depend on the processing

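The finding that 0 of the 7 tested member transcripts passed an adjusted p of 0.05 held in all 18 alternatives fitted, and the smallest adjusted p of any member was 0.113. Log2 fold changes were on the side of the fit to 6 libraries in all but 6 of 123 values. The exceptions were without siIRF4 replicate 2 (BATF 0.15, BATF3 -0.17, JUNB 0.03) and without siCTRL replicate 3 (BATF 0.29, BATF3 -0.06, JUNB 0.17). Over the fits that each left out 1 library, BATF ran from -1.14 to 0.29, BATF3 from -0.17 to 0.36 and JUNB from -0.18 to 0.17. BATF and BATF3 were not tested with a mean of at least 10 CPM, an alternative chosen after seeing the data, nor BATF3 with at least 1 CPM.

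The count of transcripts called over the whole table, 0, became 190 with DESeq2 and 8 with limma on log2(TPM + 0.1). The cause was not tested. At an unadjusted p under 0.05 the count of 1791 of 83831 became 3261 of 139557 with DESeq2 and 3466 of 140278 with no filter. With limma on log2(TPM + 1) and log2(TPM + 0.1) it was 2866 and 2738, each of 83831. With means of at least 1 and 10 CPM it was 671 of 35950 and 168 of 13437. With siIRF4 replicate 1 and siCTRL replicate 2 left out together it was 10811 of 85498. Where the number tested differs, the counts are not directly comparable. Leaving out 1 library gave 1575 to 4301, the highest without siCTRL replicate 2 and the next, 4005, without siIRF4 replicate 1.

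With the replicate block there were 0 calls, and the unadjusted count was 2746 of 83831 transcripts tested. The log2 fold changes were 0.66 for JUN, 0.62 for FOSL1 and -0.42 for ETS1, with unadjusted edgeR p-values of 0.0599, 0.0395 and 0.0313. Deviations from the group means correlated at 0.20, 0.24 and 0.04 between libraries numbered 1, 2 and 3. The last is under 0.1, so the block was not treated as a pairing.

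The number of members at 1 TPM in all libraries, 5, was 7 at 0.5 TPM, 5 at 5 TPM and 5 or 6 with 1 library left out. Not run were sums per gene, the partner-family lists and every alternative for peaks around members.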
